A study of Mus musculus with 12 samples.

Results

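The control arm of this series consisted of 6 mouse embryonic stem (ES) cell cultures that received a short hairpin RNA against firefly luciferase (Luc), and these were compared among themselves: Luc replicates 4, 5 and 6 against Luc replicates 1, 2 and 3. The 6 Luc arrays were chosen from the 12 arrays of the series by their labels, and the division followed the replicate number alone. The labels call all 6 biological replicates and name no difference between replicates 1 to 3 and replicates 4 to 6. That the controls part at this number was known from an earlier look at the same values, so the existence of the division is not a finding here. The question was which groups of genes part the control sets, and by how much.

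All 6 control cultures were E14 cells, a mouse ES cell line, kept without feeder cells on gelatin with 15% fetal bovine serum and 1000 units/ml of the cytokine LIF, which holds ES cells in self-renewal. Each was transfected with 2 µg of a pSUPER puro plasmid, from which the hairpin is transcribed and which carries resistance to puromycin. Mouse cells have no luciferase gene, so the hairpin has no intended target. Puromycin at 1 µg/ml was added on the day after transfection and kept for 4 days until RNA was taken. Total RNA (500 ng) was made into biotin-labelled cRNA and hybridised to 1-colour bead arrays with 46133 probes. The other 6 arrays came from E14 cultures under RNAi of the histone demethylase genes Jmjd1a (current symbol Kdm3a) or Jmjd2c (Kdm4c), with 3 arrays each. In the order of the series, Jmjd1a arrays alternate with Luc 1 to 3, and Jmjd2c arrays alternate with Luc 4 to 6. No label gives a transfection, passage, hybridisation or scan date, so a batch of cultures and a batch of arrays cannot be told apart. The p-values below measure only the spread between these 3 and 3 samples, which may be technical, and say nothing on which step set the cultures apart.

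Mouse ES cells in serum and LIF hold Pou5f1, Sox2 and Nanog at high levels and move between a naive state, marked by factors such as Esrrb, Tfcp2l1 and Tbx3, and a state primed for differentiation, marked by Pou3f1, Otx2, Fgf5 and Dnmt3b. Stressed cells switch on separate transcript programmes. Shortage of amino acids acts through the transcription factor ATF4, lack of oxygen through HIF1, misfolded protein in the endoplasmic reticulum (ER) through ATF6, XBP1 and ATF4, heat through HSF1, and DNA damage through p53. Genes of meiosis and germ cells are kept low in ES cells by DNA methylation and by repressor complexes that bind E-boxes.

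The array sets were even in total signal and uneven in its distribution. Mean intensity ran from 235.9 to 244.6 over the 6 Luc arrays. The number of probes above an intensity of 32 was 13916, 13956 and 14012 on Luc 1 to 3 and 14471, 14842 and 14996 on Luc 4 to 6. These counts did not overlap. An exact permutation test, two-sided, gave p = 0.1, which is the smallest that 20 splits of 3 against 3 can give. A floor of 32 was applied to every intensity before log2 was taken, and limma tested the 14820 probes that exceeded the floor on 3 or more Luc arrays. Across them, arrays of the same set correlated at r = 0.9946 to 0.9964 and arrays of different sets at 0.9589 to 0.9613, as a description across probes. The first principal component of the 6 arrays held 86.5% of the variance and the second 4.1%.

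Of the 14820 tested probes, 8887 (60.0%) were called at a Benjamini-Hochberg adjusted p under 0.05. Of all tested probes, 5733 (38.7%) were called higher in Luc 4 to 6 and 3154 (21.3%) lower. At least 2-fold, 960 (6.48%) were higher and 281 (1.90%) lower. The 2 sets did not overlap on 9899 probes (66.8%), and 8801 of the called probes were among them. Where each gene was represented by its brightest tested probe, 8768 genes were tested, of which 3618 (41.3%) were higher and 1893 (21.6%) lower. A count of list members is to be read against these last shares. The smallest called difference was 0.15 on the log2 scale.

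The direction of the calls depended on scaling. The median log2 difference of all tested probes, Luc 4 to 6 minus Luc 1 to 3, was 0.12, and that of the genes 0.13. Among bins of rising intensity the probe median was 0.05 in the dimmest, 0.24 in bins 3 and 4 and -0.08 in the brightest. Quantile normalization moved the probe median to -0.02 and scaling each array to a common median to -0.05. Of the calls, 64.5% were higher in Luc 4 to 6 as deposited, 49.2% after quantile normalization and 45.3% after median scaling. After quantile normalization 2813 of 8740 genes (32.2%) were higher and 2529 (28.9%) lower. The 2 fits shared 7270 called probes, all of the same sign, and the 1241 probes called at 2-fold or more were all called after quantile normalization too. List medians are therefore given beside the gene median of 0.13.

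**Figure D1:**
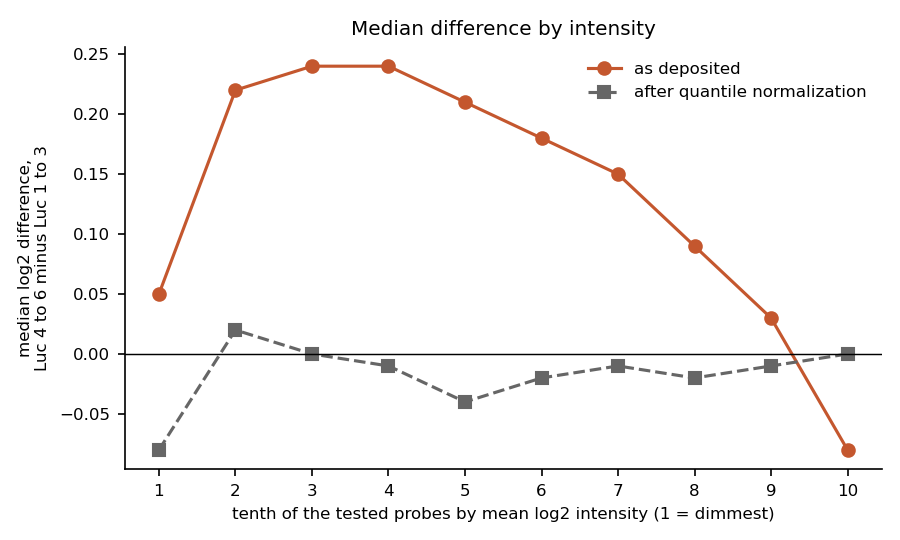
Median log2 difference between Luc 4 to 6 and Luc 1 to 3 (vertical axis) in 10 bins of the 14820 tested probes ordered by mean log2 intensity (horizontal axis, 1 is dimmest). Circles are the deposited values and squares the values after quantile normalization. As deposited, the median was 0.05 in the dimmest bin, 0.24 in bins 3 and 4 and -0.08 in the brightest bin. After quantile normalization it lay between -0.08 and 0.02.

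Both sets carried the markers of ES cells. Of 8 ES cell markers, 7 read above 32, and Dppa5a did not on any Luc array. Their summed intensity was 17345.5 to 18278.4 in Luc 1 to 3 and 17941.4 to 18651.1 in Luc 4 to 6, so the ranges overlapped. Of 22 fibroblast and feeder cell markers, 13 were at or below 32 on all 6 arrays, among them the defining collagens Col1a1, Col1a2 and Col3a1 and the proteoglycans Dcn and Lum. The summed level of the 22 was 1258.1 to 1292.8 in Luc 1 to 3 and 1895.2 to 2011.6 in Luc 4 to 6. Of 7 tested fibroblast markers 6 were higher, with a median of 0.49, led by the matrix protease Mmp2 (1.30) and the PDGF receptor Pdgfrb (1.08). Of 15 blood and macrophage markers, 11, among them Ptprc and Adgre1, were at or below 32 on every Luc array, and the 1 tested, Tal1, was lower (-0.63). In bulk RNA of this kind, fewer cells of a type and less RNA per cell cannot be told apart.

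The largest differences are given first for the 15 genes at each end, which were taken by size and belong to no list as a whole. Each is given by its most extreme probe. Ddit3, which encodes the stress transcription factor CHOP, read 52.9, 27 and 49.2 on Luc 1 to 3 and 461.3, 511.1 and 517.7 on Luc 4 to 6. The sets were far apart, an 11.4-fold difference (log2 3.51 ± 0.18 SE, limma adjusted p = 9.08e-06). Nupr1, a chromatin-bound stress protein, read 164.2, 178.7 and 183.3 against 1903.4, 2060.2 and 1965.4, an 11.3-fold difference (3.49 ± 0.07, adjusted p = 1.01e-06). Bhlhe40, a basic helix-loop-helix repressor, came next with 142.4, 180.2 and 150.6 against 1567.5, 1510.7 and 1430.5 (3.26 ± 0.10). The protease inhibitor A2m was at the floor on all of Luc 1 to 3 and read 246.1 to 280.4 on Luc 4 to 6, at least 8.35-fold higher. The floor removes the spread of such arrays, so the SE and p of a gene with 1 set at the floor do not measure it. The same holds in part where 1 or 2 arrays of the lower set are at the floor, as for Ddit3, Ppp1r3c, Ubap1l, Efnb2, Bcl11a, Nr0b1, Cdx2, Notum, Cbx5 and Dazl, whose differences the floor shortens.

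Among the other leading genes were enzymes of metabolism. Ppp1r3c, which targets protein phosphatase 1 to glycogen, differed by 3.04, and Pgm1, which converts glucose phosphates on the way to and from glycogen, by 2.54. Pgm1 read 384.8 to 397.0 in Luc 1 to 3 and 2168.4 to 2360.9 in Luc 4 to 6. The malonyl-CoA decarboxylase Mlycd (2.67), the adenylosuccinate synthase Adssl1 (2.79), the transaminase-like gene Got1l1 (2.90), the lipoprotein receptor Vldlr (at least 5.81-fold) and the autophagy protein Wipi1 (at least 5.24-fold) were among the first 15. The second tested probe of Vldlr differed by 1.19 and that of Wipi1 by 1.32. The meiotic cohesin subunit Smc1b (at least 6.99-fold) and Tcp11, a testis-expressed gene (2.41), completed the group with Tmem82 (2.48) and Ubap1l (2.41).

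On the lower side Spink1, a serine protease inhibitor, read 2970.0, 2959.0 and 2902.5 on Luc 1 to 3 and 354.2, 328.5 and 311.6 on Luc 4 to 6. Luc 4 to 6 thus held 11.2% of the level in Luc 1 to 3 (-3.15 ± 0.07, adjusted p = 1.01e-06). The G1 cyclin Ccnd2 read 848.5, 791.6 and 969.8 against 110.9, 114.8 and 104.2 (-2.98 ± 0.09), and both of its tested probes were lower. The others included the growth cone protein Gap43 (-2.83), the POU factor Pou3f1 (-2.74), the homeobox gene En1 (at least 5.79-fold lower), the transcription factors Sox11 (-2.11) and Bcl11a (-2.11) and the ephrin Efnb2 (-2.57). The 4 tested probes of Sox11 ranged from -2.11 to -0.18. The second tested probe differed by -0.55 for Bcl11a and by -1.02 for En1. The zinc finger factor Wt1 was at or below 32 on all of Luc 4 to 6 and at least 7.03-fold lower. Car2, a carbonic anhydrase, differed by -2.67, the Wnt target Sp5 by -2.51, the endocytic receptor Cubn by -2.16 and the adhesion protein Flrt3 by -2.07. Soga3 differed by -2.64, and by -1.43 on its second probe. The cyclin Ccnd1 differed by -2.66 on its most extreme of 4 probes and by -1.84 on its brightest.

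**Figure D2:**
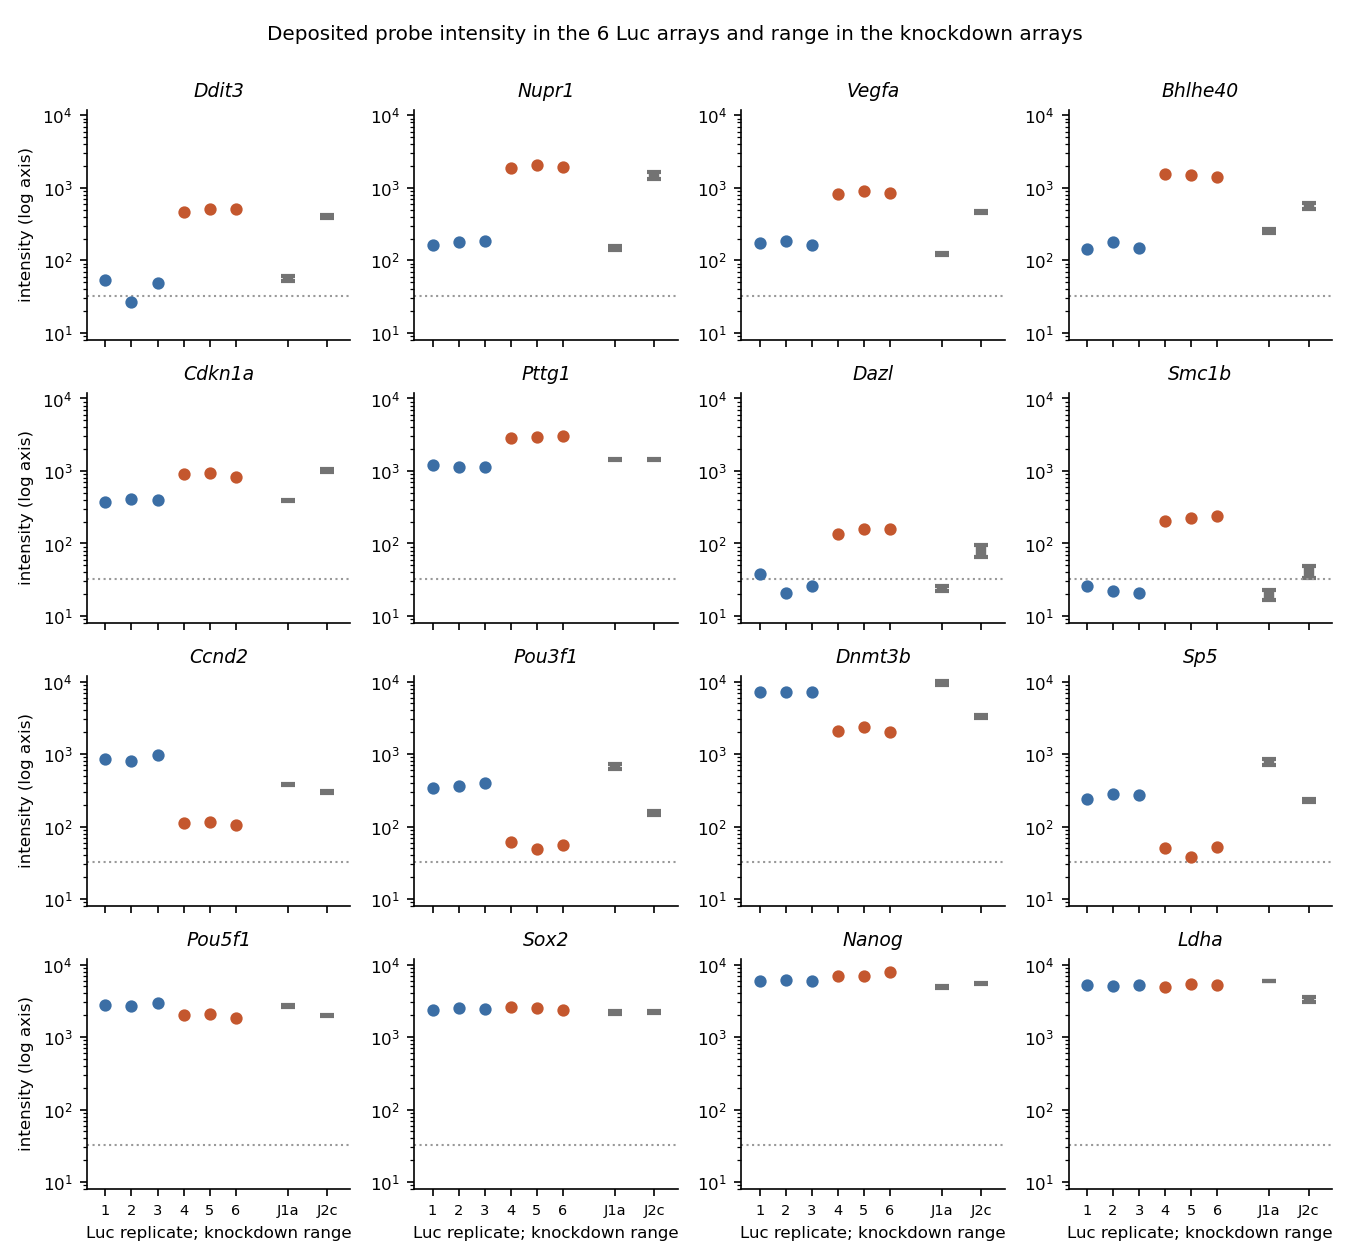
Deposited intensity of 16 genes on a log axis: each point is 1 Luc array, with replicates 1 to 3 in blue and 4 to 6 in orange, grey marks span the lowest and highest of the 3 Jmjd1a (J1a) and 3 Jmjd2c (J2c) RNAi arrays, and the dotted line is the floor of 32. The sets stand apart for Ddit3, Nupr1, Vegfa and Ccnd2, while the Sox2 and Ldha points of both sets overlap.

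Genes of the amino acid stress response, which ATF4 drives, were mostly higher in Luc 4 to 6. Of 36 tested genes on this list, 28 were higher, 2 lower and 6 did not pass, with a median of 0.72, and after quantile normalization 27 were higher and 2 lower. On 2 of the 36, and on 2 of the 40 hypoxia genes below, all of Luc 1 to 3 lay at or below 32, so these could enter the test only by being higher. Among the regulators 11 of 12 were higher, with a median of 1.12. They included Atf4 itself, which read 264.0 to 286.5 in Luc 1 to 3 and 537.0 to 569.8 in Luc 4 to 6 (1.00 ± 0.06), and the related factor Atf5 with 269.5, 310.0 and 271.0 against 1272.6, 1424.6 and 1434.2 (2.28 ± 0.08). Chac1, which degrades glutathione, read 247.3, 264.6 and 276.9 against 949.1, 1000.6 and 840.2, and the sets were again apart (1.82 ± 0.08). Trib3, a pseudokinase that binds ATF4, was below 32 on all of Luc 1 to 3 and read 64.9 to 69.3 on Luc 4 to 6. Sesn2, a leucine sensor, was the regulator that did not pass (-0.02).

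Enzymes and transporters of amino acids followed the regulators to a smaller degree. Of 8 tested genes of amino acid synthesis, 7 were higher (median 0.74). Asparagine synthetase, Asns, read 2685.9, 2647.5 and 2527.2 against 4856.2, 4992.9 and 4606.9 (0.88 ± 0.06, adjusted p = 2.91e-05), and its second probe differed by 1.16. The alanine transaminase Gpt2 (1.96), the cystathionine lyase Cth (1.29) and the mitochondrial folate enzymes Shmt2 (0.71) and Mthfd2 (0.77) were higher too. Of 7 amino acid transporters 5 were higher, led by Slc1a4 with 348.1 to 398.8 against 1350.3 to 1384.4 (1.86), while the cationic transporter Slc7a3 was lower (-0.82). Of 9 aminoacyl-tRNA synthetases, which charge tRNAs, 5 were higher, between 0.34 for Gars and 0.88 for Cars. Tars was lower (-0.23), a call that was lost without Luc replicate 2, 3, 4 or 6.

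Promoters of the ATF4 list were searched for its motif. The letters TGATGNAA of the amino acid response element were searched on both strands from 250 bases before to 50 bases after each gene's start in RefSeq's GRCm38.p6 table. They occurred in 7 of the 22 higher list genes with a promoter there (31.8%), in the 1 lower gene and in 1 of 5 that did not pass, against 2.1% of the 7197 promoters of genes with a tested probe. A match describes the letters and is not a binding site shown by these data. The list was written from general knowledge of ATF4 genes, so the excess over all promoters describes the list. It says nothing on the difference between the Luc sets. Windows of 60 bases with a match upstream of the start are shown for 4 of these genes, none of them a transporter. They run 5′ to 3′ on the gene's strand, with the motif or its reverse complement in capitals.
Nupr1: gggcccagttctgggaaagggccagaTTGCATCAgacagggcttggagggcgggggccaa
Chac1: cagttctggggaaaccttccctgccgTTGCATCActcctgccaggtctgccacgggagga
Asns: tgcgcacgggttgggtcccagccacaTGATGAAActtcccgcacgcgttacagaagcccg
Gars: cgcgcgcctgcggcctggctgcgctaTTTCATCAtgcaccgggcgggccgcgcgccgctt
The windows lie at chr7:126625547-126625606 (minus strand) for Nupr1, chr2:119351023-119351082 (plus strand) for Chac1, chr6:7693199-7693258 (minus strand) for Asns and chr6:55037945-55038004 (plus strand) for Gars. In the Asns window the match reads in the direction of the gene, and in the other 3 it is on the opposite strand.

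Chaperones did not move with the ATF4 genes. Of 17 tested ER chaperones and unfolded protein response genes 2 were higher, 4 lower and 11 did not pass (median -0.02). Hspa5, the main ER chaperone (BiP), read 2457.4, 2935.8 and 2514.3 against 2233.2, 2342.1 and 2125.9, close to overlap (-0.24 ± 0.09, adjusted p = 0.047). Its call was lost after quantile normalization (-0.15) and without any 1 of replicates 2 to 6. The ER stress sensor Ern1 was higher (1.00) and the secreted ER factor Manf lower (-0.54), while Xbp1 differed by -0.04 and did not pass. Ddit3, Chac1 and Trib3, which ER stress can also induce, are counted above with ATF4.

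Of 26 heat shock and chaperone genes, 8 were higher and 11 lower, with a median of -0.05. The median of all genes was 0.13, but it is not matched for intensity. Among the 1482 probes of the brightest bin, 353 were higher and 569 lower, with a median of -0.08. Whether the list departs from genes of like intensity was not tested. The lower genes of the list were abundant cytosolic and mitochondrial chaperones. They included the HSP90 co-chaperone Fkbp4 (-0.60), the HSP110 proteins Hsph1 (-0.55) and Hspa4 (-0.56) and the mitochondrial chaperonin Hspd1 (-0.49). The small heat shock protein Hspb8, which takes part in chaperone-assisted autophagy, differed from these. It read 593.1, 552.6 and 505.8 on Luc 1 to 3 and 2458.3, 2510.7 and 2465.1 on Luc 4 to 6 (2.17 ± 0.07, adjusted p = 2.16e-06). The ER-resident collagen chaperone Serpinh1 (0.72) and the small heat shock protein Cryab (0.62) were higher, the last not after quantile normalization (adjusted p = 0.0824). Hsp90aa1 (0.02) and Dnajb1 (-0.04), both classical HSF1 targets, did not pass. Hspa1b was not analysed here.

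The counts of the oxidative and metal stress list lay near those of all genes. Of 23 tested, 9 (39.1%) were higher and 7 (30.4%) lower, beside 41.3% and 21.6% of all genes, with a median of 0.14, and 8 and 4 after quantile normalization. The autophagy receptor Sqstm1 (0.88), the heme transporter Slc48a1 (0.74), the glutathione transferase Gstm1 (0.64) and the malic enzyme Me1 (0.60) were higher. The thioredoxin reductase Txnrd1 (-0.43), the glutathione enzymes Gclm (-0.43) and Gsr (-0.34) and the peroxiredoxin Prdx1 (-0.29) were lower. All 8 are known NRF2 targets, and Nqo1, another, differed by 0.06 and did not pass. Of 3 metallothionein and zinc export genes, Mt1 (0.20) and Mt2 (0.46) were higher.

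Genes that hypoxia induces were mostly higher in Luc 4 to 6. Of 40 tested genes of hypoxia and glycolysis, 30 were higher, 5 lower and 5 did not pass, with a median of 0.61, and 14 of the 30 differed at least 2-fold. After quantile normalization 27 were higher and 5 lower. Vegfa, the angiogenic growth factor, read 175.3, 183.2 and 164.6 on Luc 1 to 3 and 835.6, 906.5 and 863.2 on Luc 4 to 6 (2.32 ± 0.07, adjusted p = 1.61e-06). Ndrg1, a stress-response gene, read 79.3 to 101.3 against 410.4 to 422.3 (2.23 ± 0.09), and the TORC1 inhibitor Ddit4 329.1 to 427.0 against 1472.4 to 1685.7 (2.03 ± 0.11). The 2 sets did not overlap on Vegfa, Ndrg1 or Ddit4, as on 66.8% of all tested probes.

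Medians within the hypoxia list were 0.91 for 8 genes of oxygen sensing and feedback and 0.57 for 15 of glucose uptake and glycolysis, and 0.67 and 0.69 after quantile normalization. No test compared these groups. The prolyl hydroxylases that mark HIF1 for destruction, Egln1 (1.65) and Egln3 (1.74), and those of collagen, P4ha1 (1.21) and P4ha2 (1.54), were higher. Of the 15 genes of glucose uptake and glycolysis 11 were higher, led by Eno2 (1.94), Hk1 (1.59) and Pfkp (1.45), and the glucose transporter Slc2a1 read 3387.7, 3527.7 and 3828.8 against 5458.4, 5621.1 and 5832.9 (0.66 ± 0.07). Lactate dehydrogenase, Ldha, read 5196.1, 5031.6 and 5197.8 against 4918.7, 5430.9 and 5147.7, and the sets overlapped (0.01 ± 0.06, adjusted p = 0.945). Pdk1, which restrains pyruvate entry into mitochondria, did not pass either on its brightest probe (-0.08, adjusted p = 0.257), and its other probe differed by 0.56. Under median scaling Ldha and Pdk1 passed as lower (-0.17 and -0.26). Pgam1 was lower (-0.25), and Pkm (-0.11) and Gapdh (0.05) did not pass.

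The 5 lower members of the list were Tfrc, the transferrin receptor (-1.30), Cited2, a feedback inhibitor of HIF1 (-1.22), Hmox1, a heme-degrading enzyme (-0.88), Kdm3a (-0.41) and Pgam1. Cited2 read 1735.9 to 1783.3 against 729.7 to 774.9, and both of its probes were lower. The letters ACGTG and GCGTG, the cores of hypoxia response elements, occurred in 17 of 26 promoters of the higher genes (65.4%). They also occurred in 4 of 4 promoters of the lower genes and in 4 of 5 of genes that did not pass. Of promoters of all genes with a tested probe, 65.0% held them.

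**Figure D3:**
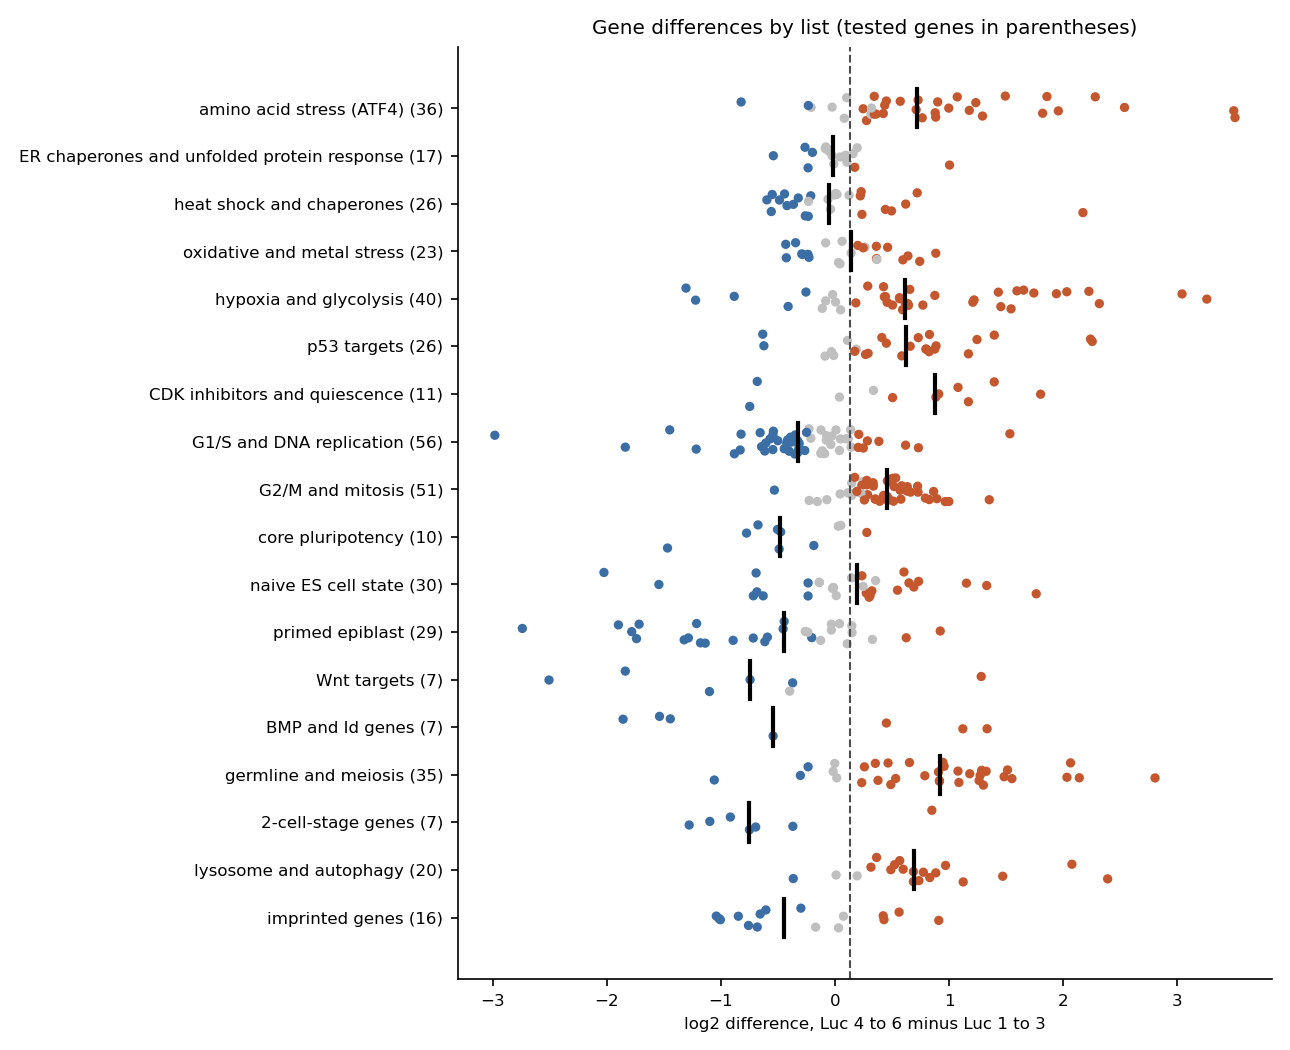
Log2 difference of each tested gene between Luc 4 to 6 and Luc 1 to 3 (horizontal axis) in 18 lists, with the number of tested genes in parentheses. Orange points were called higher, blue points lower and grey points did not pass, black bars are list medians and the dashed line is the median of all 8768 genes (0.13). The bars of amino acid stress (0.72), hypoxia and glycolysis (0.61) and germline genes (0.92) lie right of the line, and those of primed epiblast (-0.45) and G1/S genes (-0.32) left of it.

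Targets of p53 and brakes on the cell cycle were mostly higher. Of 26 tested p53 targets 19 were higher and 2 lower (median 0.62), and 18 and 3 after quantile normalization. Cdkn1a, which encodes the kinase inhibitor p21, read 374.1, 415.2 and 404.1 on Luc 1 to 3 and 913.9, 935.7 and 836.2 on Luc 4 to 6 (1.17 ± 0.07, adjusted p = 1.78e-05), and its other probe differed by 1.29. The epoxide hydrolase Ephx1 (2.25), the atypical cyclin Ccng2 (2.24), the damage-binding protein Ddb2 (1.40) and the pro-apoptotic Pmaip1 (1.24) were higher as well. The 4 tested Ddb2 probes ranged from 0.59 to 1.40. Ccng2 is also known as a FOXO target and Pmaip1 as an ATF4 target. Mdm2, the p53 ubiquitin ligase, differed by 0.59, Perp by -0.62 and the phosphatase Dusp4 by -0.63. Trp53 was not analysed here. Of 11 CDK inhibitors and quiescence genes 7 were higher and 2 lower (median 0.88), with the antiproliferative genes Btg1 (1.80) and Tob1 (1.40) and the INK4 inhibitor locus Cdkn2a (1.08) among the higher. The second Cdkn2a probe differed by 0.20. Cdkn1c (-0.68) and Gadd45g (-0.75, at the floor in Luc 4 to 6) were lower.

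The cell cycle lists went opposite ways. Of 56 tested G1/S and DNA replication genes 31 were lower, 8 higher and 17 did not pass (median -0.32), while of 51 G2/M and mitosis genes 40 were higher, 1 lower and 10 did not pass (median 0.46). After quantile normalization the counts were 34 lower and 7 higher, and 35 higher and 2 lower. The gene median of 0.13 lies between the list medians.

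On the G1/S side the D-type and E-type cyclins, which drive entry into S phase, were lower. The brightest Ccnd1 probe read 1892.1, 1958.4 and 2062.9 against 561.7, 572.6 and 521.6 (-1.84 ± 0.07, adjusted p = 2.61e-06), and Ccne1 read 1071.3, 1121.8 and 1177.3 against 471.4, 496.0 and 483.5 (-1.22 ± 0.06). The sets were apart on both. The ubiquitin ligase subunit Skp2 (-0.88), the kinase Cdk4 (-0.64) and the factors E2f2 (-0.66) and E2f3 (-0.57) were lower, while E2f1 (0.73) and the pocket proteins Rb1 (1.53) and Rbl2 (0.62), which restrain E2F, were higher. Of 6 genes of nucleotide supply 5 were lower, from the dUTPase Dut (-1.45) to the reductase subunit Rrm2 (-0.42). Of 34 licensing and replisome genes 15 were lower, among them Cdc6 (-0.82), Mcm2 (-0.61) and Pcna (-0.54), 5 were higher and 14 did not pass.

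On the G2/M side most differences were under 2-fold and shared by many genes. Securin, Pttg1, which holds back chromatid separation, read 1202.6, 1120.9 and 1133.9 on Luc 1 to 3 and 2841.8, 2939.1 and 3047.6 on Luc 4 to 6 (1.35 ± 0.06, adjusted p = 5.58e-06). The phosphatase Cdc25c differed by 1.00, the spindle proteins Ckap2 by 0.97, Hmmr by 0.86 and Nusap1 by 0.79, the cohesin protector Sgo2a by 0.89 and topoisomerase Top2a by 0.66. The 3 tested Cdc25c probes ranged from 0.27 to 1.00. Of 12 spindle and motor genes 11 were higher. The kinases were higher by less, Aurkb by 0.63, Aurka by 0.48, Plk1 by 0.35 and Cdk1 by 0.28. The proliferation marker Mki67 read 847.4, 851.4 and 888.5 against 1174.1, 1132.6 and 971.0 (0.34 ± 0.08), without passing after median scaling (0.16, adjusted p = 0.141). Cks2 was lower (-0.53), and Birc5 (-0.07) and Mad2l1 (-0.15) did not pass. Ccnb1 was not analysed here.

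Promoters of the higher G2/M genes often held the letters TTTGAA, the core of the cell cycle homology region (CHR) through which the DREAM complex acts. The letters occurred on either strand in 26 of the 33 with a promoter in the table (78.8%), against 11.6% of promoters of all genes with a tested probe. They also occurred in 3 of 9 list genes that did not pass. The list was written from general knowledge of mitotic genes, so the excess over all promoters describes the list. It says nothing on the difference between the Luc sets, and the genes that did not pass are few. Windows for 3 of the higher genes, chosen as the marker of proliferation, the mitotic kinase and the topoisomerase, show the letters in capitals.
Top2a: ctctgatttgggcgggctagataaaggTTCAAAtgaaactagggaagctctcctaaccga
Cdk1: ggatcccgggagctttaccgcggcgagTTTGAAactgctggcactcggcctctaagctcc
Mki67: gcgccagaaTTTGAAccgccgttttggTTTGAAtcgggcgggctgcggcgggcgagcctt
They lie at chr11:99024180-99024239, chr10:69352895-69352954 and chr7:135716445-135716504, all on the minus strand. The Mki67 window holds the letters at both marked places.

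**Figure D4:**
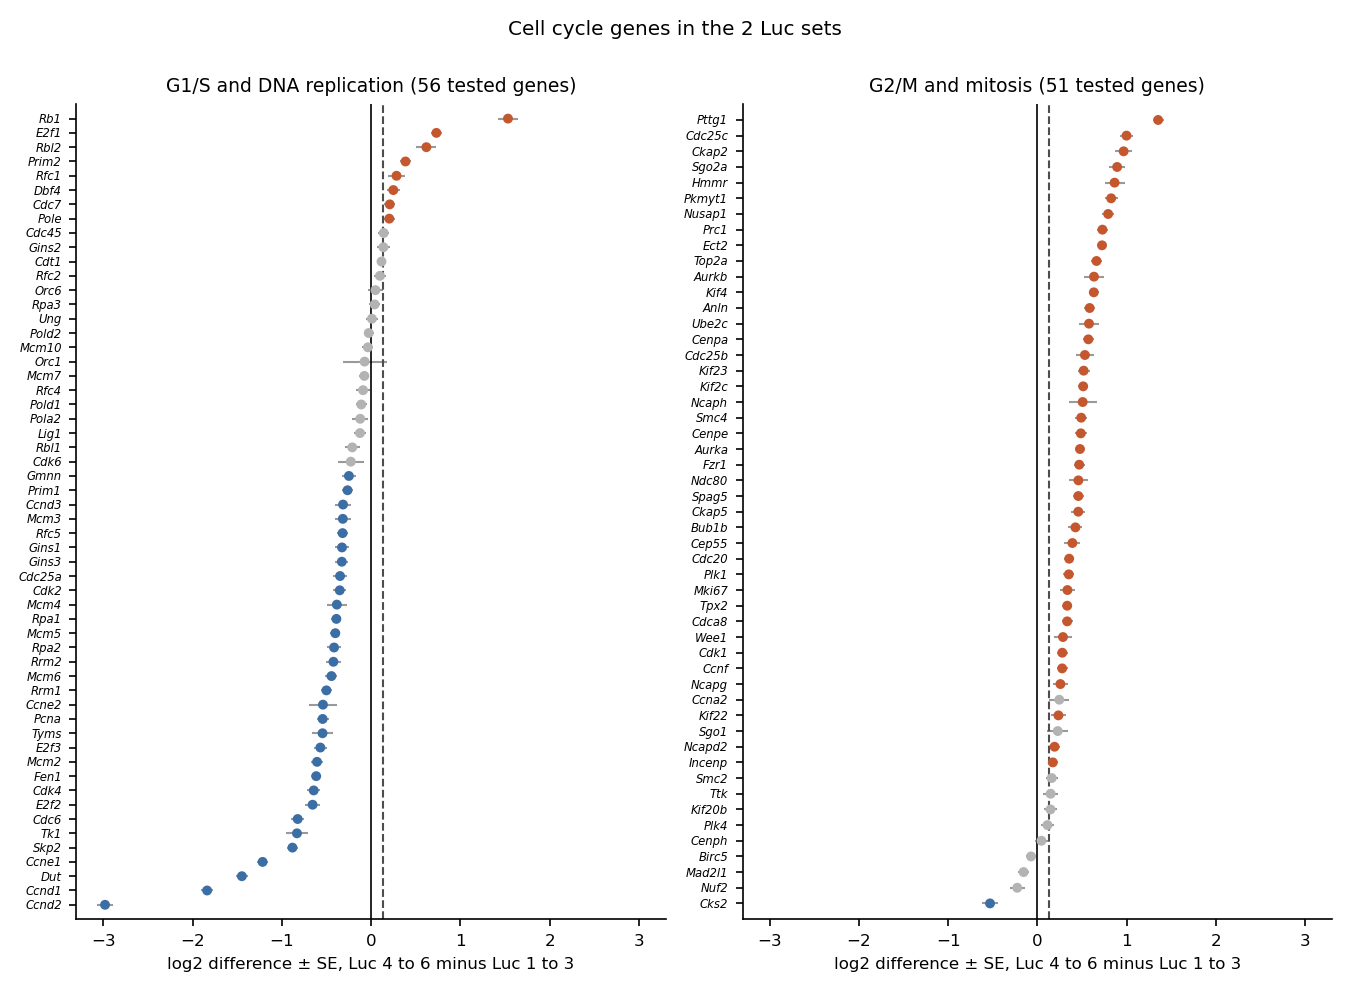
Log2 difference ± SE between Luc 4 to 6 and Luc 1 to 3 (horizontal axis) for the 56 tested G1/S and DNA replication genes (left) and the 51 tested G2/M and mitosis genes (right), ordered by difference. Orange was called higher, blue lower, grey did not pass, and the dashed line is the median of all genes (0.13). Ccnd2 (-2.98) and Rb1 (1.53) are the ends of the left panel, Cks2 (-0.53) and Pttg1 (1.35) those of the right.

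Of the core pluripotency factors, Pou5f1 was lower and Nanog higher, and the probes of Nanog and Sox2 differed among themselves. Pou5f1 read 2791.6, 2652.7 and 2974.5 on Luc 1 to 3 and 2037.7, 2084.0 and 1821.2 on Luc 4 to 6 (-0.50 ± 0.08, adjusted p = 0.00115), with no overlap. Sox2 read 2347.1, 2551.1 and 2422.6 against 2580.2, 2498.4 and 2391.1, and the sets overlapped (0.03 ± 0.06), while its dimmer probe was higher by 0.37. The brightest Nanog probe read 5951.2, 6078.5 and 5983.2 against 7035.8, 6901.9 and 7972.7 (0.28 ± 0.07, adjusted p = 0.0122), which did not pass after median scaling (0.10, adjusted p = 0.238). The other 2 Nanog probes were higher by more, up to 1.07. Of 10 tested genes on the core list 7 were lower and 1, Nanog, higher (median -0.48). The RNA-binding protein Lin28a, which blocks let-7 maturation, was lower by the most, with 668.0, 635.3 and 614.6 against 235.6, 239.7 and 218.7 (-1.47 ± 0.07). Rif1 (-0.77) and Zfp281 (-0.67) were lower on both of their probes.

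The counts of the naive state list also lay near those of all genes. Of 30 tested, 13 (43.3%) were higher and 8 (26.7%) lower, beside 41.3% and 21.6% of all genes, 9 did not pass, and the median of 0.19 lay near that of all genes and turned to -0.03 under median scaling. The T-box factor Tbx3 read 927.7, 935.4 and 928.4 against 2046.3, 2022.3 and 2138.9 (1.15 ± 0.06, adjusted p = 6.95e-06). Tfcp2l1 read 3402.8, 3363.1 and 3701.9 against 5209.6, 5548.7 and 4583.9 (0.55 ± 0.09), and the Akt coactivator Tcl1 was higher by 1.33. Esrrb differed by 0.27 (adjusted p = 0.00731) and lost its call under median scaling (0.10, adjusted p = 0.198). Klf4 (0.15, adjusted p = 0.15), Klf2 (-0.02) and Dppa3 (0.36, adjusted p = 0.0969) did not pass, and Prdm14 was near the floor (0.25, adjusted p = 0.233). The surface marker Pecam1 (1.76) and the LIF targets Socs3 (0.65) and Pim1 (0.73) were higher, and 4 of 5 tested genes of the LIF pathway were.

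The lower naive genes included some with large differences. Gbx2, a homeobox gene that LIF induces in ES cells, read 4214.8, 4244.2 and 4495.0 against 1060.4, 1039.3 and 1085.0 (-2.02 ± 0.06, adjusted p = 1.61e-06), so it was against the direction of Tbx3 and Socs3. The orphan receptor Nr0b1 (-1.54), the DNA methyltransferase cofactor Dnmt3l (-0.71), Dppa2 (-0.69) and Gdf3 (-0.68) were lower. Zfp42, a widely used ES cell marker, read 3946.6, 4445.3 and 4485.5 against 3558.1, 3697.1 and 3668.7 (-0.24 ± 0.07, adjusted p = 0.0223). Its call was lost after quantile normalization (-0.09) and without Luc replicate 2, 3 or 4.

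Genes of the primed epiblast were mostly lower in Luc 4 to 6. Of 42 on the array 29 were tested, of which 17 were lower, 2 higher and 10 did not pass (median -0.45). Pou3f1, an early gene of exit from the naive state, read 340.1, 367.2 and 400.1 against 60.7, 49.4 and 56.0 (-2.74 ± 0.10, adjusted p = 2.49e-06). Dnmt3b, the de novo DNA methyltransferase, read 7070.2, 7256.9 and 7213.1 against 2098.1, 2384.2 and 1991.6 (-1.74 ± 0.08, adjusted p = 5.34e-06). The sets were far apart on both genes. Otx2, a transcription factor that also opens the primed state, read 427.9 to 468.5 against 451.3 to 537.1, with overlap (0.11 ± 0.08, adjusted p = 0.298). Fgf5 was too dim to be tested, with 28.5 to 36.7 on Luc 1 to 3 and at most 8.7 on Luc 4 to 6.

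Of 7 tested signals on the primed list 5 were lower and none higher, with a median of -0.61. Among the genes of FGF and ERK signalling, which were picked after their values were seen, the ERK targets Etv1 (-1.72), Spry4 (-1.32), Dusp6 (-0.89), Etv4 (-0.72) and Spry2 (-0.45) and the ligand Fgf15 (-1.21) were lower. Spry4 read 674.4 to 688.0 in Luc 1 to 3 and 264.5 to 282.3 in Luc 4 to 6. Other genes that ERK can induce were higher, such as Ier3 (1.87), Dusp1 (1.17) and Fos (0.88), the last not with a floor of 64. The Nodal target and inhibitor Lefty1 was lower (-0.61), while Nodal (0.15) and Lefty2 (-0.03) did not pass. The epithelial factor Grhl2 (-1.90), the kinase Pim2 (-1.78, second probe -0.53), Tcf15 (-1.28) and Sox4 (-1.14) were lower. The keratin Krt18 (0.92) and the dim Grhl3 (0.62, at the floor in Luc 1 to 3) were higher.

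The Wnt and the BMP and Id lists were short, with 7 tested genes each, and their medians depended on the filter, the Wnt median on the floor too. Of the Wnt targets 5 were lower and 1 higher (median -0.74). The median was 0.00 with a floor of 64, -0.04 without a filter and -1.84 over probes above 32 on all 6 arrays. Sp5 stood at 237.7, 281.4 and 272.6 against 50.6, 38.1 and 51.7, Cdx2 differed by -1.10 and the Wnt inactivator Notum by -0.74. The feedback inhibitor Nkd2 was higher (1.28, second probe 0.46), and Ccnd1 is counted on this list too. Of the BMP and Id genes 4 were lower and 3 higher (median -0.54, 0.00 without a filter and -1.44 over probes above 32 on all 6 arrays). The Id genes, inhibitors of differentiation that BMP and serum induce, were lower on their brightest probes, Id2 by -1.86, Id3 by -1.54 and Id1 by -1.44. Id2 read 284.7, 302.6 and 320.0 against 93.3, 79.8 and 78.0. The second Id2 probe differed by -0.33. The second Id1 probe went the other way (0.37), so the probes of Id1 disagree. Bmp4 was lower (-0.54), and the Notch and BMP target Hes1 (1.12) and Dlx3 (at least 2.52-fold) were higher.

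Genes of germ cells and meiosis were mostly higher, from low levels. Of 67 on the array 35 were tested, of which 29 were higher, 3 lower and 3 did not pass (median 0.92), and after quantile normalization 25 were higher and 3 lower. On 4 of the 35 all of Luc 1 to 3 lay at or below 32, and a gene that enters the test only through the set where it is high had to differ, so these counts support nothing by themselves. Without a filter the median over all 67 was 0.08. Smc1b read 26.0, 21.9 and 20.5 on Luc 1 to 3 and 207.0, 222.5 and 242.9 on Luc 4 to 6. Dazl, an RNA-binding protein of germ cells, read 37.9, 21.0 and 25.7 against 133.0, 159.6 and 157.0, with 2 of Luc 1 to 3 under the floor (2.14 on the floored scale). Neither gene overlapped between the sets, as was so for 66.8% of all tested probes.

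Germline genes that read well above the floor on all arrays were among the higher ones. The meiotic cohesin subunit Stag3 read 610.6, 669.8 and 618.5 against 1545.1, 1530.6 and 1550.2 (1.29 ± 0.06), and Rec114, needed for meiotic DNA breaks, 218.7, 217.4 and 229.9 against 654.7, 636.8 and 659.4 (1.55 ± 0.06). The meiotic kinase Aurkc read 98.0 to 104.3 against 385.0 to 445.3 (2.03 ± 0.07). The germ cell factor Taf7l (1.27) and the receptor Kit (0.92) were higher too. Of the dimmer genes, the retinoic acid responsive Stra8 read at most 22.8 against 85.9 to 91.4 and the piRNA helicase Mov10l1 18.7 to 27.9 against 81.6 to 112.6, each with all of Luc 1 to 3 under the floor. The X-linked Tex11 read 26.3 to 43.7 against 141.8 to 160.1 and the germ cell factor Sohlh2 20.3 to 39.0 against 77.7 to 93.3, each with 2 of Luc 1 to 3 under the floor. The 3 lower genes were the ribosomal protein paralogue Rpl39l (-1.06), Nanos1 (-0.30) and Zfp42, which is on this list too. Ddx4 was too dim to be tested, between 12.7 and 45.2 over the 6 arrays.

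The E-box CACGTG, which the repressor PRC1.6 reads at many germline promoters through its MGA and MAX subunits, occurred in 6 of 23 higher germline genes with a promoter in the table (26.1%). It occurred in 0 of 3 lower genes, in 0 of 3 that did not pass and in 11.1% of promoters of all genes with a tested probe. The germline list too was written from general knowledge, so the excess over all promoters describes the list and not the difference between the Luc sets. The lower genes and those that did not pass are few. These letters hold ACGTG, so each also counts as a hypoxia response core. Windows are shown for 3 of the higher genes, with the E-box in capitals.
Stag3: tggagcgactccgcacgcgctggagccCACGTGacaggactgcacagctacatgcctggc
Rec114: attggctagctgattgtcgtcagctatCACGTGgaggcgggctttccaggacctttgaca
Taf7l: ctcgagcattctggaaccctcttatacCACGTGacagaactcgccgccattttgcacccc
They lie at chr5:138280312-138280371 (plus strand) for Stag3, chr9:58741546-58741605 (minus strand) for Rec114 and chrX:134476507-134476566 (minus strand) for Taf7l.

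Genes of the 2-cell stage, which a small share of ES cells express at a time, went the other way from the germline. Of 7 tested 6 were lower and 1 higher (median -0.75). The probe of Zscan4c read 802.4, 866.9 and 917.1 against 428.6, 459.9 and 481.7 (-0.92 ± 0.08), Tcstv1 was lower by -0.75, Usp17la by -1.10 and the arginase Arg2 by -1.28. Zfp750 was higher (0.85). Zscan4c, Tcstv1 and Usp17la belong to families of near-identical copies, so their probes may read several genes.

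Markers of differentiated lineages did not share a direction. Of 17 tested endoderm markers 12 were lower and 4 higher (median -0.52), and 7 of the 25 on the array, among them Foxa2, Sox7, Afp and Ttr, were at or below 32 on every Luc array. The endocytic adaptor Dab2 read 955.9, 920.1 and 980.9 against 239.0, 240.5 and 244.1 (-1.98), its partners Cubn (-2.16) and Lrp2 (-1.50) were lower, and Foxq1 (-1.45) and Pdgfra (-0.76) were too. The factor Hnf4a (1.26), Apoe (1.34) and Pga5 (1.15) were higher. The summed endoderm markers were 6473.1 to 6682.1 in Luc 1 to 3 and 4630.4 to 4859.2 in Luc 4 to 6.

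Of 7 neuroectoderm markers 4 were lower and 3 did not pass (median -0.71), with En1, En2 (-1.29), Pax6 (-0.71) and Gbx2 lower and the defining markers Sox1 and Nes at or below 32 on every Luc array. The summed level of the 21 on the array was 5633.6 to 5915.6 in Luc 1 to 3 and 1958.6 to 1973.6 in Luc 4 to 6, most of it in Luc 1 to 3 from Gbx2. Of 8 trophectoderm markers 4 were higher and 3 lower (median 0.55). The keratin Krt7 read 47.8 to 54.8 against 208.2 to 241.4 (2.11), Tfap2c (0.91) and Eomes (0.76) were higher, and Cdx2 and Fgfr2 (-0.64) lower. Of 18 mesoderm and streak markers 4 were tested, and Tbx6 was higher (1.15), as was Gsc (0.29), which lost its call after quantile normalization and without any 1 of replicates 1, 2, 4, 5 and 6. The part of other cell types in these differences was not tested.

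Both genes targeted in the rest of the series were called lower in Luc 4 to 6, by less than 2-fold. Kdm3a read 2207.7, 1958.6 and 2267.4 on Luc 1 to 3 and 1587.4, 1597.0 and 1649.1 on Luc 4 to 6 on its brightest probe (-0.41 ± 0.07, adjusted p = 0.00223). Kdm4c read 307.4, 328.9 and 311.8 against 270.0, 277.9 and 265.8 (-0.22 ± 0.06, adjusted p = 0.0143). Of 15 tested enzymes and readers of histone H3 lysine 9 methylation 9 were lower and 3 higher (median -0.29). The corepressor Trim28 (-0.58), the methyltransferases Ehmt2 (-0.54) and Suv39h2 (-0.53) and the heterochromatin protein Cbx5 (-0.71) were lower, and the demethylase Kdm4b was higher (0.83). Of 10 genes of DNA methylation 6 were lower and 1 higher (median -0.34), with Dnmt3b and Dnmt3l leading, Mbd3 at -0.64, Uhrf1 at -0.38 and Tet1 at -0.30, and Dnmt1 not passing (-0.04).

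The knockdown arrays, which were not used to make any of the calls above, gave values for the same genes. Across the called probes, Jmjd2c minus Jmjd1a had the sign of Luc 4 to 6 minus Luc 1 to 3 in 87.3%. Across those called at 2-fold or more the share was 95.6%. The share over all tested probes is not given here. In the 2-fold calls the median absolute difference was 0.88 for the knockdown and 1.27 for the Luc pair. These probes were selected by the size of their Luc difference, so the 2 medians cannot be compared. Across tested probes the 2 differences correlated at r = 0.729, a description over probes that share arrays. The Jmjd1a arrays correlated with Luc 1 to 3 at 0.9858 to 0.9875 and with Luc 4 to 6 at 0.9473 to 0.9494, and the Jmjd2c arrays at 0.9716 to 0.974 and 0.9784 to 0.9815. The knockdown differs between these arrays too, so its part and that of the array set cannot be told apart.

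By gene, the knockdown arrays followed the Luc sets to different degrees. Ddit3 read 51.6 to 60.1 in Jmjd1a and 387.4 to 425.0 in Jmjd2c RNAi, near Luc 1 to 3 and Luc 4 to 6 respectively. Nupr1 read 138.4 to 156.6 and 1326.2 to 1637.5, and Vegfa 120.6 to 127.1 and 444.0 to 482.2. Bhlhe40 differed by 1.16 between the knockdown arrays against 3.26 between the Luc sets, Ndrg1 by 0.62 against 2.23 and Ccng2 by 0.86 against 2.24. The median of Jmjd2c minus Jmjd1a was 1.31 over the 12 ATF4 regulators, 0.62 over the germline list, -0.50 over the primed list and 0.27 over the hypoxia list, whose glucose uptake and glycolysis genes had -0.02. It was 0.31 over the G2/M list and 0.19 over the naive list, with 0.46 and 0.19 between the Luc sets.

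Single genes departed from their lists. Pttg1 read 1398.4 to 1443.8 in Jmjd1a and 1424.3 to 1463.3 in Jmjd2c RNAi, with overlap, and Gbx2 3298.5 to 3506.9 and 2829.4 to 2911.1. Smc1b was 16.6 to 22.5 and 33.8 to 49.4, below the 207.0 to 242.9 of Luc 4 to 6. The endoderm list had the opposite sign in the knockdown arrays. Its median was 0.81 between them and -0.52 between the Luc sets. Foxq1 read 72.7 to 79.5 in Jmjd1a and 507.8 to 580.1 in Jmjd2c RNAi, with 214.6 to 228.2 in Luc 1 to 3 and 73.8 to 88.7 in Luc 4 to 6.

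**Figure D5:**
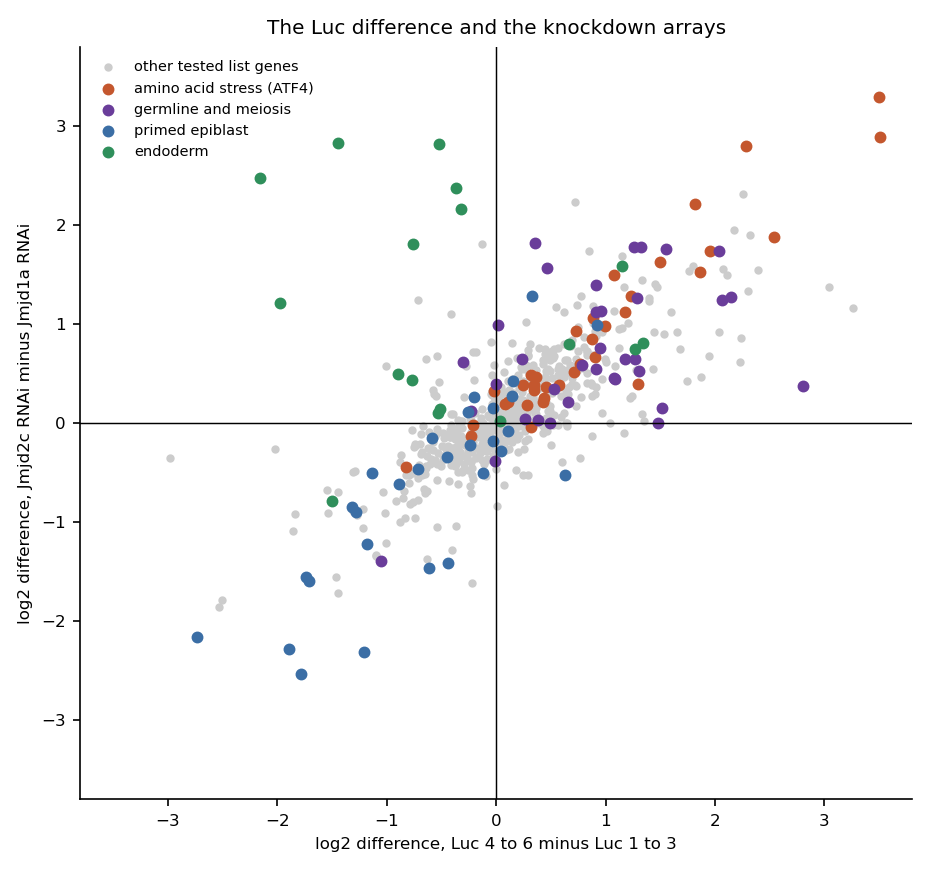
Log2 difference between Luc 4 to 6 and Luc 1 to 3 (horizontal axis) and between Jmjd2c and Jmjd1a RNAi (vertical axis) for the tested list genes, 1 point per gene. Amino acid stress genes (list medians 0.72 and 0.50) lie towards the upper right, primed epiblast genes (-0.45 and -0.50) towards the lower left, and several endoderm genes in the upper left (list medians -0.52 and 0.81).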

How the data were processed

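The authors deposited 1 intensity per probe and array on a linear scale, per the value table. Between 35.4% and 36.8% of the values on each Luc array lie below 0, so a background had been subtracted. The method of subtraction and any scaling between arrays are not given in these sources. The values were used as deposited, floored at 32 and put on the log2 scale, where the floor is 5. Probes above 32 on at least 3 of the 6 Luc arrays were tested with lmFit and eBayes of limma 3.58.1 in R 4.3.3 (4 residual degrees of freedom). All adjusted p are two-sided, from limma and adjusted by Benjamini-Hochberg over the 14820 tested probes, with a threshold of 0.05. Differences are log2 estimates (± SE where given) and values without a unit are intensities. Genes were named from the array's probe annotation (29542 probes with 1 symbol, 11 with several, 16580 with none), and 29484 probes matched a GRCm38.p6 gene table. Neither the number of arrays nor a dim probe's signal allows small differences to be read closely. The fit was also run on simulated data, in which few probes were changed and no shift with intensity was set. Those settings differ from these data, so that run does not check the calls given here.

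Members, lists and tests were chosen with earlier results of these data known. The 32 lists, written from general knowledge, hold 941 genes on the array, of which 703 were tested, and are described by counts and medians, with no set test. Named by rule were the 15 largest called differences each way among probes without overlap (1 probe per gene, no clone or model names), up to 4 called genes each way per list, and a fixed set of pluripotency, stress, cycle and germline genes. Other list members in the text, and the genes whose promoters are shown, were chosen after their values were seen. Alternatives were quantile normalization, median scaling, floors of 16 and 64, other filters, all 12 arrays in the fit, and leaving out each replicate.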

Additional observations from a re-analysis of the deposited data

How the results depend on the processing

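No paired analysis was possible because the replicate numbers 1 to 3 and 4 to 6 do not overlap. Without a filter 5768 probes were called, 3765 higher and 2003 lower. Median scaling called 4871 lower, and a floor of 64 left 788 at 2-fold or more. Leaving out 1 replicate gave 8024 to 8443 calls. List medians by setting were as follows. Quantile normalization gave 0.52 for hypoxia, 0.58 for ATF4, 0.39 for G2/M, 0.07 for naive, -0.63 for primed and 0.73 for germline genes. The median of all genes was 0.01 there. Median scaling gave 0.43 for hypoxia, -0.22 for heat shock, -0.20 for ER, 0.54 for ATF4, 0.45 for p53, -0.49 for G1/S, 0.28 for G2/M, -0.66 for core, -0.03 for naive, -0.63 for primed and 0.74 for germline genes. A floor of 64 gave 0.64 for ATF4, 0.52 for p53, 0.01 for naive and 0.51 for germline genes. Probes above 32 on all 6 arrays gave 0.64 for ATF4 and -0.59 for primed genes. No filter gave 0.54 for hypoxia, 0.44 for ATF4, 0.43 for p53, 0.35 for G2/M, 0.00 for naive, -0.10 for primed and 0.08 for germline genes, as it adds probes at the floor. All tested probes of the genes gave 0.55 for ATF4 and -0.31 for core genes. Leaving out a replicate gave 0.39 to 0.46 for G2/M and -0.51 to -0.41 for primed genes. The CDK inhibitor median was 0.53 with a floor of 64 and 0.42 without a filter, and the 2-cell median -0.43 and 0.00. Median scaling multiplied each array by its own factor and moved the median of all tested probes from 0.12 to -0.05. Its list medians are to be read against that value. Fewer probes are tested under the stricter settings, and the cause of the remaining shifts was not tested. Besides the naive median, those of oxidative stress (-0.03), ribosomal (-0.02), cholesterol (-0.02), immediate early (-0.14) and RNA quality genes (-0.13) turned negative under median scaling. So did the median of all tested probes. The interferon median was -0.11 over all tested probes, the ER median 0.04 without replicate 4, and the immediate early and RNA quality medians, both near 0, also turned under quantile normalization (-0.10 and -0.01) and the former under 4 further settings. Of the named genes, Dnajb4, Gsc, Hspa5, Kdm1a, Pdia3, Pdia4, Smad6, Tars, Ywhaz and Zfp42 lost their call without some replicate. Signal over background limits the dim genes, whose differences the floor shortens.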

Other observations

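Genes of lysosomes and autophagy were mostly higher in Luc 4 to 6. Of 20 tested 17 (85.0%) were higher and 1 (5.0%) lower, beside 41.3% and 21.6% of all genes. The median was 0.69 against 0.13 for all genes, and the counts were the same after quantile normalization. On 1 of the 20 all of Luc 1 to 3 lay at or below 32, so it could enter the test only by being higher. The lysosomal hexosaminidase Hexa read 231.4, 214.1 and 226.4 on Luc 1 to 3 and 928.9, 943.9 and 960.3 on Luc 4 to 6 (2.08 ± 0.06, limma adjusted p = 1.61e-06). The autophagosome protein Gabarapl1 (1.47) and the lysosomal membrane protein Lamp2 (1.12) were higher, and the regulator Tfe3 was lower (-0.37). Of 16 imprinted genes 9 were lower and 4 higher (median -0.45). Mest (-1.04), Dlk1 (-1.02) and Phlda2 (-0.85) were lower, and Igf2r, the receptor that clears IGF2, was higher (0.91). Igf2, a fetal growth factor, was among the lower and read 438.8 to 464.5 against 203.9 to 236.5.

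Of 13 interferon response genes 6 (46.2%) were higher and 4 (30.8%) lower, near the 41.3% and 21.6% of all genes. Their median was 0.20, and 0.01 after quantile normalization. The antigen presentation genes Psmb9 (1.68) and H2-K1 (1.44) were higher. The RNA sensor Ddx58 (-1.31, second probe -0.54) and Ifitm3 (-0.79) were lower. Of 67 oxidative phosphorylation genes 25 were lower and 7 higher (median -0.07), and after quantile normalization 22 and 15. ATP synthase subunits such as Atp5j (-0.87) and Atp5g1 (-0.79) were among the lower. Of 68 ribosomal protein genes 28 were higher and 6 lower (median 0.15, close to that of all genes), and probes of Rplp2 and Rps24 disagreed in sign. Cholesterol and fatty acid genes were 10 higher (37.0%) and 10 lower (37.0%) of 27, with a median of 0.15, close to that of all genes. Acetyl-CoA synthetase Acss2 (2.30) was higher and Idi1 (-0.85) and Fasn (-0.76) lower. Immediate early and SRF-YAP genes were 5 higher (31.2%) and 6 lower (37.5%) of 16, with a median of 0.01. Ier3 (1.87) and Dusp1 (1.17) were higher and Ccn2 (-0.74) and Egr1 (-0.68) lower. Of 12 housekeeping genes kept as a check of RNA quality and labelling 4 were higher and 3 lower (median 0.04), from Gusb (0.89) to Tuba1b (-0.32). Among genes with 2 or more called probes, 978 of 1093 had all of them on 1 side and 115 on both.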
